A study of Homo sapiens with 6 samples.

Results

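The genes described here encode the chains of collagens and laminins, the integrin receptors that bind them, and fibronectin (FN1) with the nidogens NID1 and NID2. They were picked by gene symbol alone, and 85 of the 27672 genes in the table met the rule: 44 collagen chains, 12 laminin chains, 26 integrin subunits, and FN1, NID1 and NID2. Polyadenylated RNA was sequenced from 3 libraries of undifferentiated hESCs (the embryonic stem cell line H9 at day 0) and 3 libraries of NMP-L (D3) cells, neuromesodermal progenitor-like cells made from H9 in 3 days. Every library is labelled WT (wild type). The labels give hESC culture in DEF medium with bFGF at 30 ng/ml and Noggin at 10 ng/ml on plates coated with fibronectin at 5 µg per cm2, without further treatment. For the NMP-L cells they give N2/B27 or Neurobasal medium containing CHIR99021 (3 µM), an activator of Wnt signalling, and bFGF (20 ng/ml), and name no coating. The Methods of the study instead name TESR medium for hESCs and Geltrex, a basement membrane extract, under both kinds of culture. For cultures carried on to neural progenitors they add Noggin and the TGFβ receptor inhibitor SB431542 from day 2, without saying whether the day 3 samples received them. The medium changed together with cell state, and the 2 cannot be told apart; whether the coating also changed is not settled by these sources. All cells came from 1 line, and the replicates are called biological without a statement that they were separate cultures, so that p-values measure the spread between these samples.

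The extracellular matrix of an early epithelium is mostly a basement membrane. Laminins are trimers of an alpha, a beta and a gamma chain that polymerise under the cells, type IV collagens form a second network, and nidogens and perlecan join both. Fibrillar collagens such as types I, II, V and XI form the ropes of connective tissue, and fibronectin is assembled into fibrils on cells. Integrins are pairs of an alpha and a beta subunit that span the membrane and tie these ligands to actin. In the embryo, cells of the caudal epiblast rest on a basement membrane, which is broken down where cells leave to form mesoderm.

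Library totals were between 19454543 and 23036426 expected counts, and a count of 3, used as the detection floor, equals 0.125 to 0.160 CPM (counts scaled to library size, with TMM correction for library composition). The labels of the 6 libraries matched their markers: NANOG and POU5F1 were lower and T, CDX1, CDX2 and SP5 higher in every NMP-L library. Of 6 fibroblast and mesenchyme markers none was higher in NMP-L cells, 2 were lower, and the defining DCN and LUM had at most 1 count in any library, while the list summed to between 205 and 214 TPM in hESCs and between 45.4 and 50.7 TPM in NMP-L cells (TPM, a level per transcript length scaled to library size), mainly through THY1, which hESCs express. Of 5 endothelial markers none was higher and 2 were lower, with PECAM1 and CDH5 at 5 counts or fewer, and the list summed to between 150 and 161 TPM in hESCs and 45.0 to 51.4 TPM in NMP-L cells mainly through KDR, which hESCs express. All 6 endoderm markers were below the filter, with a sum of at most 1.45 TPM, SOX17 at 0 or 1 count and TTR at 0. Of the leukocyte markers, PTPRC, CD14 and CD3E had at most 2 counts in any library. In bulk RNA, fewer cells of a type and less RNA per cell cannot be told apart.

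Most fibrillar collagens were lower in NMP-L cells, COL1A1 by 12.2-fold, while the laminin chain LAMC1 and the nidogen NID1 were 2.33-fold and 2.57-fold higher. Of the 85 genes, 72 passed the expression filter and were tested with edgeR's quasi-likelihood test, with p-values adjusted by the Benjamini-Hochberg method over all genes tested. Of these, 34 were lower and 16 higher in NMP-L cells at an adjusted p under 0.05, and 22 did not pass the threshold. Among all 15517 genes tested the shares were 26.7% lower and 29.1% higher, against 47.2% and 22.2% of the 72. The median log2 fold change of the 72 was -0.29 and that of all tested genes 0.03. At 2-fold or more, 12 were lower and 9 higher (background 9.18% and 9.38%). The libraries of the 2 conditions did not overlap for 56 of the 72 (background 61.6%). Collagens had 22 falls and 6 rises among 38 tested, laminins 5 and 3 among 11, and integrins 6 of each among 20.

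**Figure D1:**
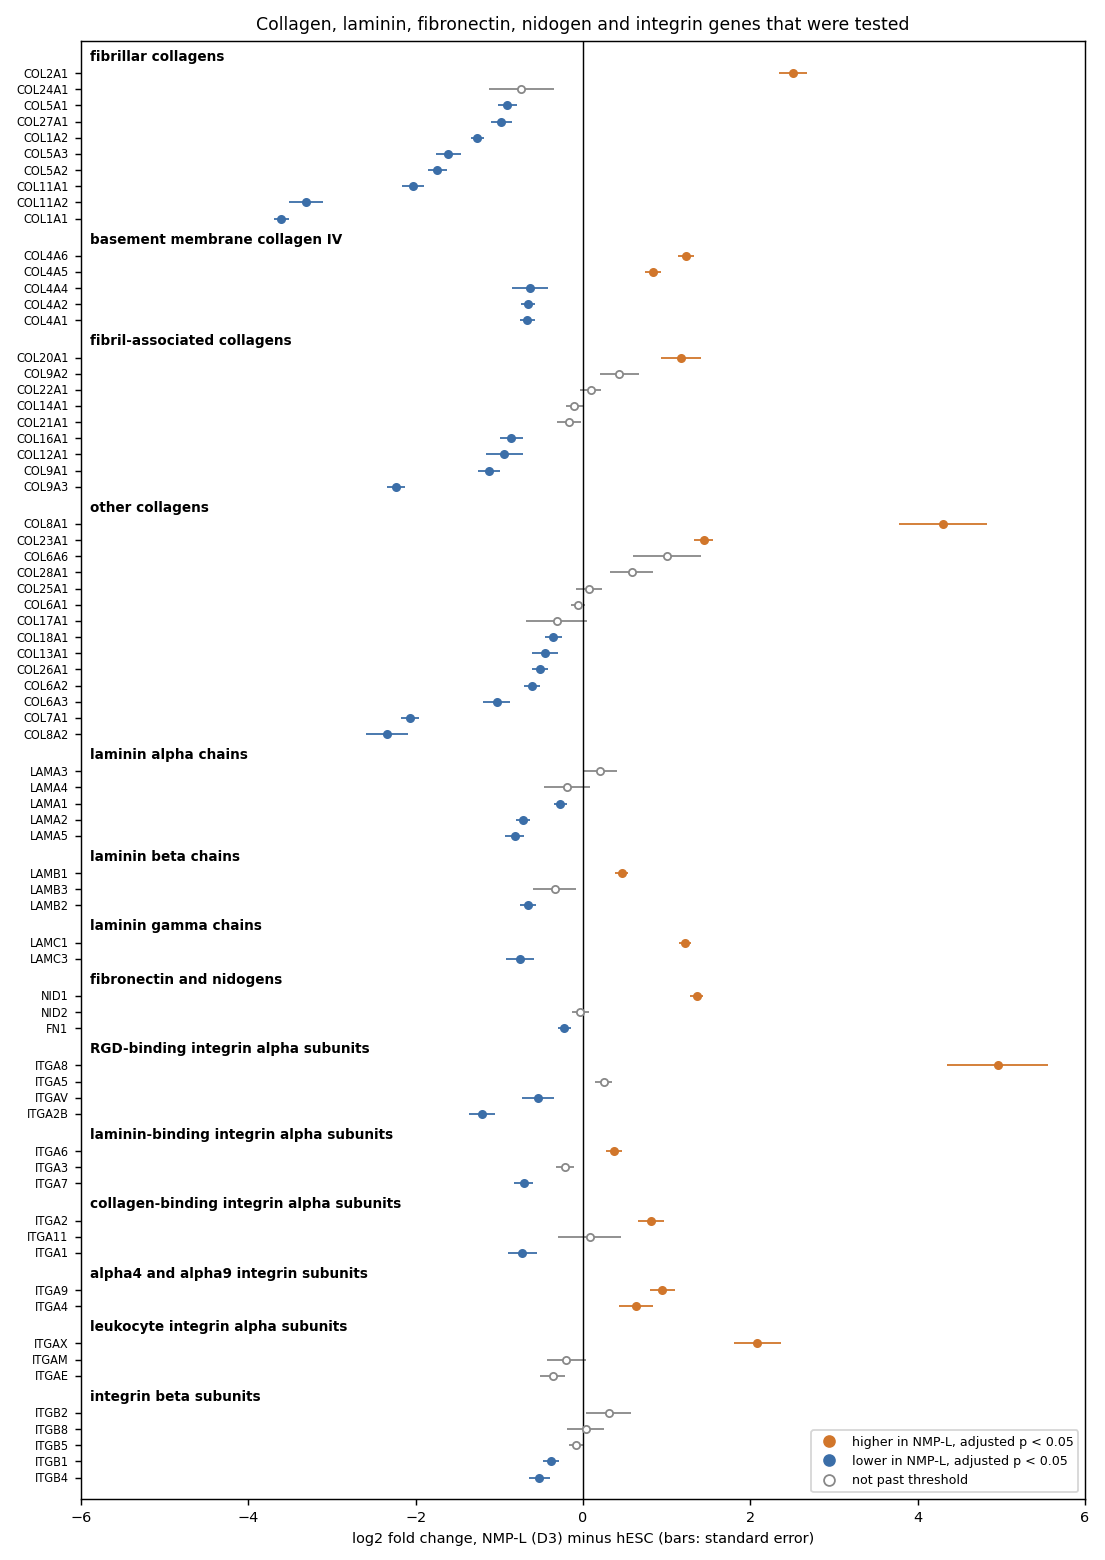
Log2 fold change (NMP-L minus hESC, x axis) of 71 tested genes, grouped by role (y axis), with bars for the standard error; filled orange and blue points passed the threshold as higher or lower and open grey points did not. Fibrillar collagens lie to the left of 0 except COL2A1 at 2.51, while LAMC1 at 1.22 and NID1 at 1.36 lie to the right.

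Fibrillar collagens had the lowest median change of the gene classes. Of 11 genes 10 were tested, 8 were lower, 1 was higher and COL24A1 (log2 fold change -0.74, adjusted p = 0.13) did not pass the threshold. The shares were 80% lower and 10% higher, against 26.7% and 29.1% of all genes tested. The median log2 fold change was -1.44. COL1A1, the alpha-1 chain of type I collagen of bone and skin, lies on chromosome 17 of GRCh37 from 48261462 to 48278993. It measured 897, 1039 and 1041 CPM in the hESC libraries and 84.0, 84.5 and 75.9 CPM in the NMP-L libraries. Every hESC library was far above every NMP-L library. The fall was 12.2-fold (log2 fold change -3.61, standard error 0.09, edgeR adjusted p = 3.8e-10). COL1A1 had the highest mean level per length of all 85 genes in hESCs, at 338 ± 23.8 TPM (SD, n = 3). In hESC replicate 1 ITGB1 was above it, at 360 against 311 TPM. In NMP-L cells COL1A1 ranked 14th by mean, at 29.7 ± 0.750 TPM. Its partner chain COL1A2 fell much less, from 228, 227 and 243 CPM to 102, 95.7 and 93.6 CPM, a 2.40-fold fall (log2 fold change -1.26, standard error 0.08, adjusted p = 1.1e-07). The ratio of COL1A1 to COL1A2 in TPM went from 3.58, 4.16 and 3.91 in hESCs to 0.753, 0.804 and 0.739 in NMP-L cells. The ratios did not overlap, and the two-sided exact permutation test gave p = 0.1, the smallest that 3 against 3 libraries allow.

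The chains that join or nucleate type I and type II fibrils moved the same way. COL11A2, a chain of type XI collagen of cartilage, had 9.29, 11.1 and 12.9 CPM in hESCs, then 1.35, 0.810 and 1.17 CPM in NMP-L cells, a 9.93-fold fall (log2 fold change -3.31, standard error 0.21). COL11A1 measured 38.3, 33.8 and 40.2 CPM and then 10.1, 7.58 and 9.82 CPM (log2 fold change -2.03). Both type XI chains were thus lower in each NMP-L library than in any hESC library. Of the type V chains, which regulate fibril width, COL5A2 went from 28.2, 25.3 and 25.0 CPM to 8.39, 7.86 and 7.27 CPM (log2 fold change -1.74). COL5A3 went from 10.5, 10.8 and 12.9 CPM to 4.31, 3.62 and 3.30 CPM (log2 fold change -1.61). COL5A1 fell by 0.91 and COL27A1 by 0.98 on the log2 scale, and neither overlapped between conditions. COL3A1, the type III chain of vessels and loose tissue, was near the floor, with 1, 4 and 5 counts across the hESC libraries and 3, 0 and 1 across the NMP-L libraries, and was not tested.

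COL2A1 was the exception. It encodes the type II chain of cartilage and notochord sheath, and it measured 6.94, 6.63 and 6.37 CPM in hESCs, then 43.8, 28.5 and 41.6 CPM in NMP-L cells. Replicate 2 of the NMP-L libraries was the lowest of its group but still above every hESC library. The rise was 5.71-fold (log2 fold change 2.51, standard error 0.16, adjusted p = 2.3e-07). COL9A3 and COL9A1, chains of type IX collagen, which coats type II fibrils, were lower in the NMP-L libraries. COL9A3 went from 107, 116 and 120.4 CPM to 27.1, 24.5 and 21.1 CPM (log2 fold change -2.24, standard error 0.11); its exons overlap those of TCFL5 on the other strand, and no source says whether counting used strand. COL9A1 went from 9.82, 9.97 and 9.97 CPM to 4.98, 3.96 and 4.72 CPM (log2 fold change -1.12). The third chain, COL9A2, had a log2 fold change of 0.43 that did not pass the threshold (adjusted p = 0.14). In all, 9 of 10 fibril-associated collagens were tested, and 55.6% of the 9 were called, near the 55.8% of all genes tested. Of the 9, 4 were lower, 1 was higher and 4 did not pass the threshold. The riser was COL20A1, at 1.07, 0.977 and 1.096 CPM against 2.38, 1.91 and 2.80 CPM (log2 fold change 1.17, adjusted p = 0.0015), while COL12A1 and COL16A1 fell by 0.94 and 0.86 on the log2 scale. COL14A1, COL21A1 and COL22A1 had log2 fold changes of -0.10, -0.17 and 0.09 and overlapping libraries, and COL19A1 had at most 1 count.

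**Figure D2:**
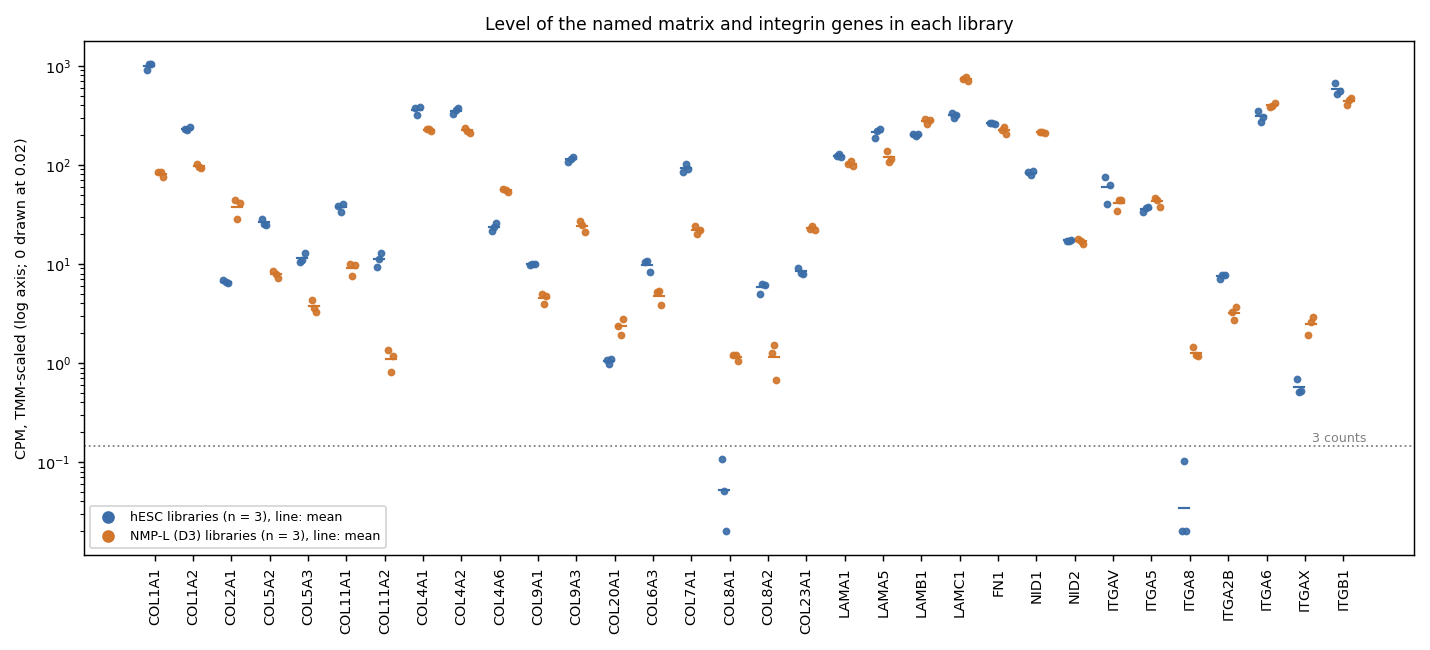
Level in each library of the 32 genes picked by the naming rule (x axis) in CPM on a log axis (y axis); each point is 1 library, blue for hESC and orange for NMP-L (D3), short lines are means, zeros are drawn at 0.02, and the dotted line marks 3 counts. COL1A1 drops from between 897 and 1041 CPM to between 75.9 and 84.5 CPM, and the 2 groups of points overlap in ITGAV and NID2.

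Type IV collagen, the network collagen of basement membranes, is encoded by 6 genes that lie in 3 head-to-head pairs, each pair reading outward from a shared start region. COL4A1 and COL4A2 are on chromosome 13 of GRCh37 (110801310 to 110959504, minus strand, and 110958159 to 111165556, plus strand). COL4A5 (107683068 to 107940775, plus strand) and COL4A6 (107398837 to 107682727, minus strand) are on chromosome X, and COL4A3 and COL4A4 on chromosome 2. The start regions are shown because the 2 genes of a pair share one and changed in the same direction. The windows come from RefSeq on GRCh38.p14, run from 250 bases before to 50 after an annotated start, and 61 of the 85 genes had one. Capitals mark 2 motifs searched on both strands, the GC box (GGGCGG or its reverse CCGCCC, found in 45.0% of all 35116 windows) and the CCAAT box (CCAAT or ATTGG, 34.6%); a TATA box (TATAAA or TTTATA, 11.5%) was searched too and matched none of the windows printed here. The window of COL4A1 (chr13:110307108-110307407, minus strand) also holds the start of COL4A2, 127 bases upstream of the start of COL4A1 and on the other strand. The starts of COL4A5 (chrX:108439588-108439887, plus strand) and COL4A6 (chrX:108439409-108439708, minus strand) are 380 bases apart, so that their windows overlap only in part.
COL4A1: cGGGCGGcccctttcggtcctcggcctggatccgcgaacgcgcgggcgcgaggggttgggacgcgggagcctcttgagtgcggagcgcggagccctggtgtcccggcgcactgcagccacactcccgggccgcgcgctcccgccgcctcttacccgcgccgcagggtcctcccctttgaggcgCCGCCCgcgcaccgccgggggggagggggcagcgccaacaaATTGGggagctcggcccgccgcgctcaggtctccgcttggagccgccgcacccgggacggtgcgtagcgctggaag
COL4A5: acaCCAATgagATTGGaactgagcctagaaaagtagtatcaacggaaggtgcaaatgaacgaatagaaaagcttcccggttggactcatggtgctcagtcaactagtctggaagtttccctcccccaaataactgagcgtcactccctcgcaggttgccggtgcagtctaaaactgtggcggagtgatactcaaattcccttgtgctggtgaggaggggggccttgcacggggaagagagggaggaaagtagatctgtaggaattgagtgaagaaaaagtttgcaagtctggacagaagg
COL4A6: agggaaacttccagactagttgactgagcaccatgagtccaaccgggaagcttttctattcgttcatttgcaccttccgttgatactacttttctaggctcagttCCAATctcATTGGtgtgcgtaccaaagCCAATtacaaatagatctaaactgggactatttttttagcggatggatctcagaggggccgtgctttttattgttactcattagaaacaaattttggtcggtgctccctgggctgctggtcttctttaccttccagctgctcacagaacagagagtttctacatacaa
The COL4A1 window has a GC content of 76.7%, with 2 GC boxes and 1 CCAAT box. The COL4A5 and COL4A6 windows have 49.3% and 43.7% GC, with 2 and 3 CCAAT boxes and 0 GC boxes (median of all windows 58.7% GC). The 2 boxes of COL4A5 lie in the stretch that both windows share and are the same bases as the first 2 of COL4A6. COL4A6 has another annotated start further from COL4A5, and the files do not say which start was used. A match is a run of letters and no measure of binding.

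COL4A1 and COL4A2 fell by the same amount, and COL4A5 and COL4A6 both rose, by unequal amounts. COL4A1 measured 378, 318 and 379.5 CPM in hESCs, then 229.8, 231 and 218 CPM in NMP-L cells (log2 fold change -0.66, standard error 0.08, adjusted p = 4.6e-05). COL4A2 measured 323, 358 and 373 CPM and then 236, 222 and 211 CPM (log2 fold change -0.66, standard error 0.08, adjusted p = 3.6e-05). Exons of COL4A2 overlap those of COL4A2-AS1 and COL4A2-AS2 on the other strand. Each NMP-L library was below each hESC library for both COL4A1 and COL4A2. Their TPM ratio was 1.01 ± 0.140 in hESCs and 1.00 ± 0.0371 in NMP-L cells (SD, n = 3 each; two-sided exact permutation test p = 1). COL4A6 went up from 21.5, 23.4 and 25.7 CPM to 57.3, 55.7 and 53.3 CPM (log2 fold change 1.24, standard error 0.10, adjusted p = 9.8e-07). COL4A5, the chain mutated in X-linked Alport syndrome, went from 38.5, 33.6 and 38.9 CPM to 68.2, 61.8 and 68.8 CPM (log2 fold change 0.84, standard error 0.09). The ratio of COL4A5 to COL4A6 was 1.62 ± 0.192 in hESCs and 1.23 ± 0.0927 in NMP-L cells, without overlap (two-sided exact permutation test p = 0.1). The COL4A3 and COL4A4 pair was low: COL4A4 measured 3.25 ± 0.646 and 2.09 ± 0.319 CPM, and COL4A3, below the filter, had 7, 9 and 12 counts across the hESC libraries and 3, 3 and 0 across the NMP-L libraries. The fall of COL4A4 (adjusted p = 0.027) was lost with the replicate number as a block (0.052) and without either of hESC replicates 1 and 3 or NMP-L replicates 1 and 2 (0.058 to 0.10), and with limma on TPM (0.13). COL4A5 as a share of all type IV TPM rose from 4.79% ± 0.242 to 11.6% ± 0.821, without overlap between conditions.

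Among the remaining 17 collagens, 14 were tested, 7 were lower and 2 higher. The share called was 64.3%, against 55.8% of all genes tested. COL7A1, the anchoring fibril collagen under stratified epithelia, went from 83.8, 102 and 90.6 CPM to 23.9, 19.8 and 22.0 CPM (log2 fold change -2.07, standard error 0.11, adjusted p = 3.6e-08). The type VI chains, which form beaded microfibrils as a heterotrimer, parted. COL6A1 was 498 ± 35.4 CPM in hESCs, then 476 ± 40.8 CPM in NMP-L cells, with overlapping libraries (log2 fold change -0.06, adjusted p = 0.54), whereas COL6A2 fell from 166 ± 16.6 to 109 ± 9.03 CPM (log2 fold change -0.61, standard error 0.10). The COL6A1 to COL6A2 ratio was 2.47, 2.33 and 2.35 in hESCs and 3.49, 3.43 and 3.50 in NMP-L cells, without overlap. COL6A3 fell from 10.4, 10.6 and 8.35 CPM to 5.21, 5.29 and 3.88 CPM (log2 fold change -1.03) and was far below the other chains per length, at 2.24 and 1.18 TPM.

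The type VIII chains, short-chain collagens of vessel and eye, moved apart. COL8A2 went from 4.96, 6.27 and 6.16 CPM to 1.26, 1.53 and 0.668 CPM (log2 fold change -2.34, standard error 0.25). COL8A1 had 2, 1 and 0 counts across the hESC libraries and 27, 25 and 25 counts across the NMP-L libraries. Because all its hESC libraries were under the floor of 3 counts, its NMP-L level was at least 7.32-fold higher (floor per library). COL23A1, a transmembrane collagen, went from 9.18, 8.18 and 7.88 CPM to 22.4, 24.4 and 22.1 CPM (log2 fold change 1.45, standard error 0.11). COL18A1, the basement membrane proteoglycan from which endostatin is cut, was among the most abundant collagens and fell from 349 ± 38.9 to 273 ± 26.05 CPM (log2 fold change -0.35, adjusted p = 0.0096); its exons overlap those of SLC19A1 on the other strand. COL13A1 (adjusted p = 0.029) lost its call under several settings, DESeq2 included (0.058), and COL26A1 fell from 44.2 ± 2.42 to 31.1 ± 2.43 CPM (log2 fold change -0.51). COL6A6, COL17A1, COL25A1 and COL28A1 did not pass the threshold. COL10A1 had at most 1 count, COL15A1 at most 5, and COL6A5 had 2, 1 and 2 counts before and 11, 8 and 7 after differentiation; these 3 were below the filter.

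The laminins were split by chain. LAMC1, the gamma chain of most laminins, is on chromosome 1 of GRCh37 from 182992555 to 183114727. It measured 334, 299 and 319 CPM in hESCs, then 739, 770.5 and 708 CPM in NMP-L cells. The conditions were far apart, with a 2.33-fold rise (log2 fold change 1.22, standard error 0.07, adjusted p = 1.2e-07), and LAMC1 moved from rank 11 to rank 3 of the 85 genes by TPM. NID1, which binds the gamma chain and joins laminin to type IV collagen, is on the same chromosome from 236139130 to 236228409. It measured 84.0, 78.5 and 86.1 CPM and then 217, 213 and 208 CPM, a 2.57-fold rise (log2 fold change 1.36, standard error 0.08, adjusted p = 6.4e-08). Its paralogue NID2 did not pass the threshold, with 17.2, 17.2 and 17.6 CPM in hESCs, then 17.9, 17.1 and 16.0 CPM in NMP-L cells (log2 fold change -0.03, standard error 0.10, adjusted p = 0.82). The ratio of NID1 to NID2 in TPM went from 4.08 ± 0.160 to 10.7 ± 0.429 (SD, n = 3 each), without overlap. The start windows of LAMC1 and NID1, shown because both genes rose more than 2-fold, from RefSeq on GRCh38.p14, are chr1:183023170-183023469 on the plus strand for LAMC1 and chr1:236065041-236065340 on the minus strand for NID1, with the same motifs in capitals.
LAMC1: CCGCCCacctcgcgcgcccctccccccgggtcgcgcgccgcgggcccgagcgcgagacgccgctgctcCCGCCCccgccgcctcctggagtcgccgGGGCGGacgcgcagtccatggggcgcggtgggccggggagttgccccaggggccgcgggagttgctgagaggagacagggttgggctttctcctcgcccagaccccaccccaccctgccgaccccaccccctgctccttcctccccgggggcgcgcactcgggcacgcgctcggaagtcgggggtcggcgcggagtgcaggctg
NID1: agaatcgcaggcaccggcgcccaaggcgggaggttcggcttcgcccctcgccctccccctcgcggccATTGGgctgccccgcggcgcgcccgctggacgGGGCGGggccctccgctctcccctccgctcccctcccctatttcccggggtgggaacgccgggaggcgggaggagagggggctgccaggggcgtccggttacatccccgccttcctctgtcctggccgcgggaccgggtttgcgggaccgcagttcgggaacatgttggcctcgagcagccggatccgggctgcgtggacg
The LAMC1 window holds 3 GC boxes and 0 CCAAT boxes at 79.0% GC, and the NID1 window holds 1 of each at 74.7% GC.

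LAMB1, the beta chain that pairs with LAMC1 in early basement membranes, rose less than its partner. It measured 203, 194 and 204 CPM in hESCs, then 290.1, 257 and 281 CPM in NMP-L cells, without overlap (log2 fold change 0.46, standard error 0.08, adjusted p = 0.0003). The ratio of LAMC1 to LAMB1 in TPM went from 1.21, 1.14 and 1.15 to 1.88, 2.21 and 1.86. LAMB2, the beta chain of synaptic and kidney laminins, fell from 106 ± 9.65 to 67.6 ± 5.95 CPM (log2 fold change -0.65, adjusted p = 0.00015). None of the 5 alpha chains passed the threshold as higher, and 3 were lower. LAMA5, the alpha chain that hESCs themselves secrete and grow on, went from 185, 221 and 232 CPM to 139, 106 and 116 CPM (log2 fold change -0.82, standard error 0.11, adjusted p = 8.9e-05). LAMA1, the main embryonic alpha chain, went from 124, 129 and 119 CPM to 102, 110.3 and 96.5 CPM (log2 fold change -0.27, standard error 0.08, adjusted p = 0.014), a call that was lost with the replicate block (0.0501), with limma on TPM (0.089) and without NMP-L replicate 3 (0.054). LAMA2, of muscle basement membrane, fell from 52.0 ± 0.644 to 31.7 ± 0.476 CPM (log2 fold change -0.71). LAMC3, another gamma chain, was lower (log2 fold change -0.75). LAMA3, LAMA4 and LAMB3 did not pass the threshold, and LAMB4 had 0 counts in all 6 libraries. Exons of LAMA5 and LAMB1 overlap those of ADRM1 and DLD on the other strand.

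The chain make-up, as the share of each chain in the summed TPM of its type, shifted towards LAMA1, LAMB1 and LAMC1. LAMB1 made up 67.5%, 63.4% and 63.7% of beta chain TPM in hESCs and 79.2%, 79.5% and 81.1% in NMP-L cells. LAMC1 went from 82.1% ± 0.648 to 89.7% ± 0.976 of gamma chain TPM. LAMA1 went from 34.1% ± 2.28 to 42.3% ± 3.32 of alpha chain TPM, and LAMA5 from 49.1% ± 3.28 to 41.7% ± 4.08. The libraries overlapped for LAMA5 (exact permutation test p = 0.2), where hESC replicate 1 and NMP-L replicate 1 both stood at 45.5%, and not for the other 3 chains (p = 0.1 each). Of 13 shares compared, the adjusted p was 0.13 for the 10 that did not overlap, and none passed a threshold of 0.05, which 3 against 3 libraries cannot reach. In sum, alpha chains went from 75.7 ± 3.07 to 54.1 ± 2.01 TPM, beta chains from 107 ± 3.96 to 128 ± 9.23 TPM, and gamma chains from 98.7 ± 6.70 to 225 ± 2.09 TPM. The libraries did not overlap for any of these sums.

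**Figure D3:**
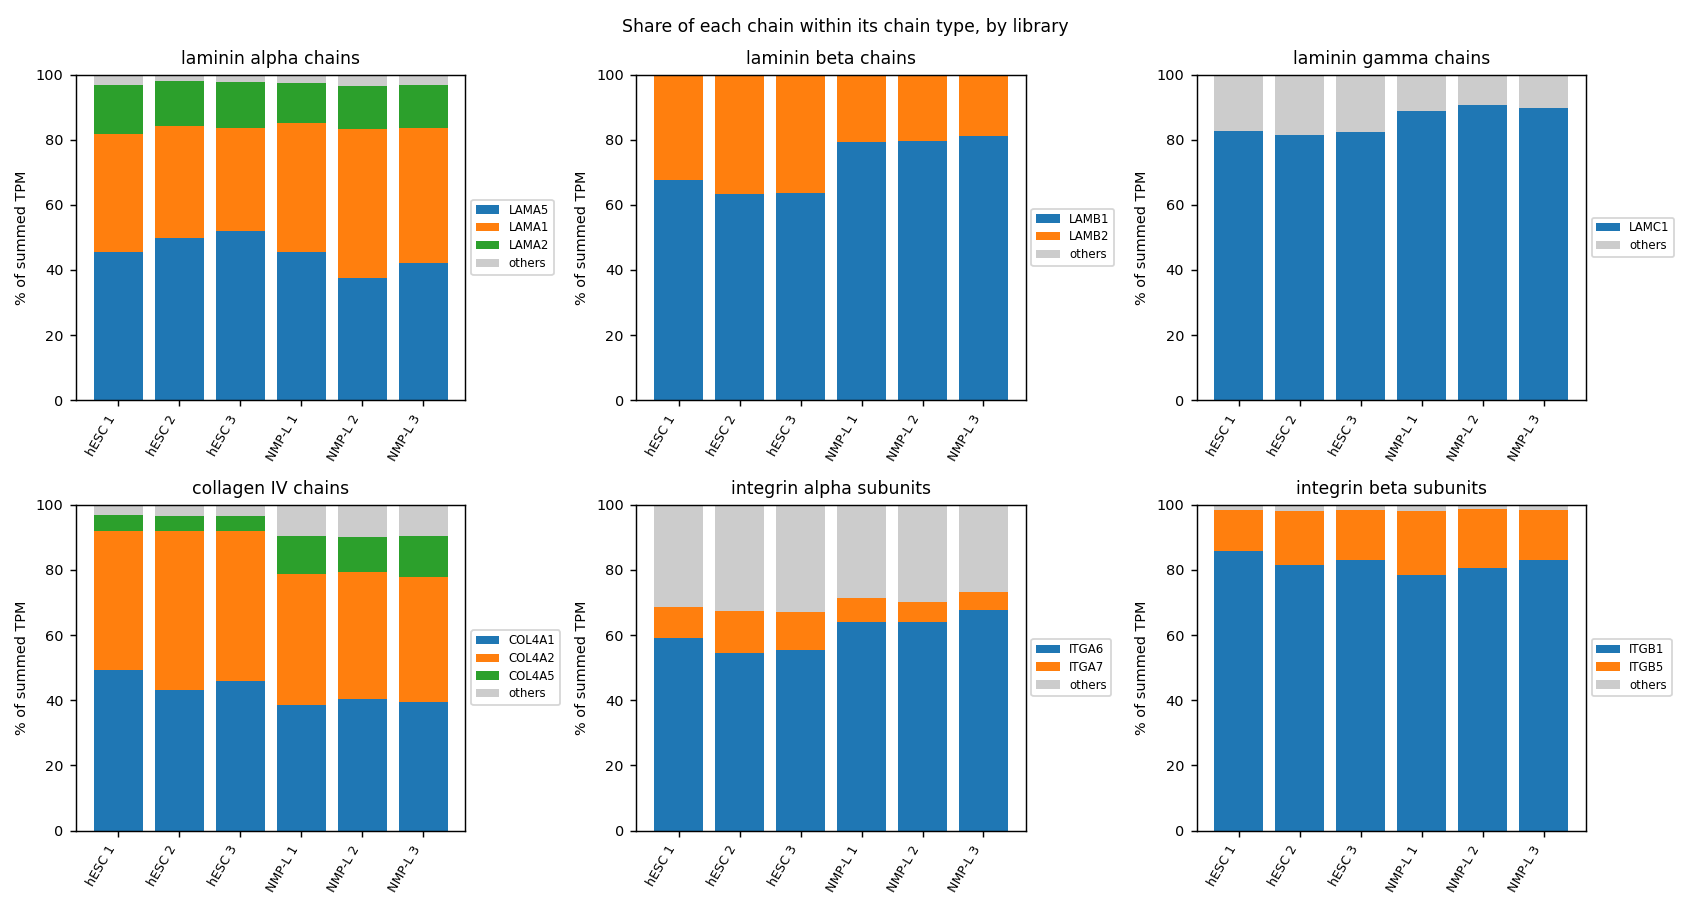
Stacked bars of each chain's share of the summed TPM of its chain type (y axis, percent) in the 6 libraries (x axis), for 13 chains at 10% or more in either condition, with all other chains of the type in grey. LAMB1 takes 63.4% to 67.5% of beta chain TPM in hESCs and 79.2% to 81.1% in NMP-L cells, and COL4A5 grows from 4.79% to 11.6% of type IV TPM.

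Fibronectin, the ligand of the ITGA5 and ITGB1 integrin, differed by a small amount. FN1, on chromosome 2 of GRCh37 from 216225163 to 216300796, measured 268, 265 and 259 CPM in hESCs against 227, 243 and 207 CPM in NMP-L cells. The libraries did not overlap, but the difference was small (log2 fold change -0.23, standard error 0.08, adjusted p = 0.028). The call was lost with the replicate block (0.078), with library size alone (0.096), with limma on TPM (0.12), and without NMP-L replicate 1 (0.070) or 3 (0.096).

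Of the 20 integrins tested, 30% were higher and 30% lower, near the 29.1% and 26.7% of all genes tested. Of 18 alpha subunits 15 were tested, with 6 higher and 4 lower, and of 8 beta subunits 5 were tested, with 0 higher and 2 lower. Per length, ITGB1, the common partner of most alpha subunits that bind matrix, led the integrins. In NMP-L cells it had the highest mean of all 85 genes, at 255 ± 28.3 TPM. In NMP-L replicate 1 it was below COL6A1, at 227 against 265 TPM. It measured 664, 517 and 561 CPM in hESCs against 405, 455 and 476 CPM in NMP-L cells (log2 fold change -0.38, standard error 0.10, adjusted p = 0.0062), with hESC replicate 1 well above the others; limma on TPM did not call it (0.067). ITGA6, the laminin-binding partner of ITGB1 and ITGB4, was the main alpha subunit in both conditions and rose from 352, 272 and 306 CPM to 384, 394 and 425 CPM (log2 fold change 0.37, standard error 0.09, adjusted p = 0.0058). The ratio of ITGA6 to ITGB1 in TPM was 0.351, 0.349 and 0.363 in hESCs and 0.627, 0.575 and 0.590 in NMP-L cells. This ratio varied little within a condition, although among the hESC libraries both genes were highest in replicate 1. As a share of all alpha subunit TPM, ITGA6 went from 56.2% ± 2.44 to 65.3% ± 2.14.

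The other laminin-binding subunits went down or did not pass the threshold. ITGA7, a laminin receptor of muscle, fell from 43.5 ± 2.84 to 26.6 ± 3.34 CPM (log2 fold change -0.71, adjusted p = 0.00021), and ITGA3 measured 23.02 ± 1.26 and 19.9 ± 1.49 CPM (adjusted p = 0.11). Exons of ITGA7 overlap those of BLOC1S1 and METTL7B on the other strand. The summed level of the laminin-binding subunits was 141 ± 15.1 TPM in hESCs and 175 ± 12.1 TPM in NMP-L cells, without overlap. Of the collagen-binding subunits, ITGA2 rose (8.78 ± 2.03 to 15.4 ± 0.864 CPM, log2 fold change 0.81) and ITGA1 fell (6.06 ± 0.431 to 3.67 ± 0.800 CPM, log2 fold change -0.72). ITGA1 shares exons with PELO and had fractional counts, so that its reads are partly an estimate. ITGA11 did not pass the threshold, and ITGA10 was below the filter with 3 to 15 counts.

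Subunits that bind RGD, the short peptide motif of fibronectin and vitronectin, differed among themselves. ITGA5, the fibronectin receptor subunit, measured 33.6, 37.02 and 37.2 CPM in hESCs, then 46.1, 44.03 and 37.9 CPM in NMP-L cells; the libraries did not overlap, but the difference missed the threshold (log2 fold change 0.25, standard error 0.10, adjusted p = 0.057). It passed with library size alone (0.017), with limma on TPM (0.012) and without NMP-L replicate 3 (0.020). ITGAV, the partner of several beta subunits, spread from 40.2 to 74.6 CPM in hESCs (74.6, 40.2 and 63.0 CPM) and measured 33.9, 43.9 and 44.4 CPM in NMP-L cells. These libraries overlapped, and the fall (log2 fold change -0.54, adjusted p = 0.029) was lost without any of hESC replicates 1 and 3 and NMP-L replicates 1 and 2 (0.053 to 0.099), with library size alone (0.054) and with limma on TPM (0.17). ITGA2B, known as the platelet subunit, fell from 7.10, 7.66 and 7.72 CPM to 3.28, 2.72 and 3.68 CPM (log2 fold change -1.21, standard error 0.15). ITGA8, which binds nephronectin in kidney and mesenchyme, had 0, 2 and 0 counts across the hESC libraries and 32, 25 and 28 counts across the NMP-L libraries, so that it was at least 8.06-fold higher. The level in NMP-L cells was still low, at 1.27 ± 0.148 CPM.

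ITGA9 and ITGA4, relatives that bind VCAM1, tenascin and fibronectin variants, were both higher, ITGA9 at 7.42 ± 1.15 against 14.3 ± 2.14 CPM (log2 fold change 0.95, adjusted p = 0.00025) and ITGA4 at 2.96 ± 0.860 against 4.58 ± 0.160 CPM (log2 fold change 0.63, adjusted p = 0.019). The ITGA4 call was lost without hESC replicate 2 or 3 or NMP-L replicate 3 (0.051 to 0.092). Exons of ITGA4 overlap those of CERKL, and exons of ITGA9 those of ITGA9-AS1, in each case on the other strand. Of 5 subunits known from leukocytes, 3 were tested and ITGAX was higher, with 0.694, 0.514 and 0.522 CPM against 1.93, 2.57 and 2.88 CPM (log2 fold change 2.09, standard error 0.28). ITGB2, the only beta subunit that pairs with ITGAX, measured 1.18 ± 0.293 and 1.46 ± 0.216 CPM (adjusted p = 0.35), and PTPRC had at most 2 counts in any library. ITGAE (log2 fold change -0.36, adjusted p = 0.06) and ITGAM (-0.20) did not pass the threshold, and ITGAD and ITGAL had at most 9 counts. Of the beta subunits, ITGB4, the hemidesmosome partner of ITGA6, fell from 11.2 ± 0.513 to 7.80 ± 0.805 CPM (log2 fold change -0.52, adjusted p = 0.0036). ITGB5, which pairs with ITGAV, measured 117 ± 5.30 and 111 ± 8.84 CPM (adjusted p = 0.44) and made up most of what ITGB1 left of beta subunit TPM, 14.9% ± 2.12 in hESCs and 17.6% ± 2.22 in NMP-L cells. ITGB3, ITGB6 and ITGB7 were below the filter, with at most 6 counts in any library, and ITGB8 did not pass the threshold (log2 fold change 0.03).

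**Figure D4:**
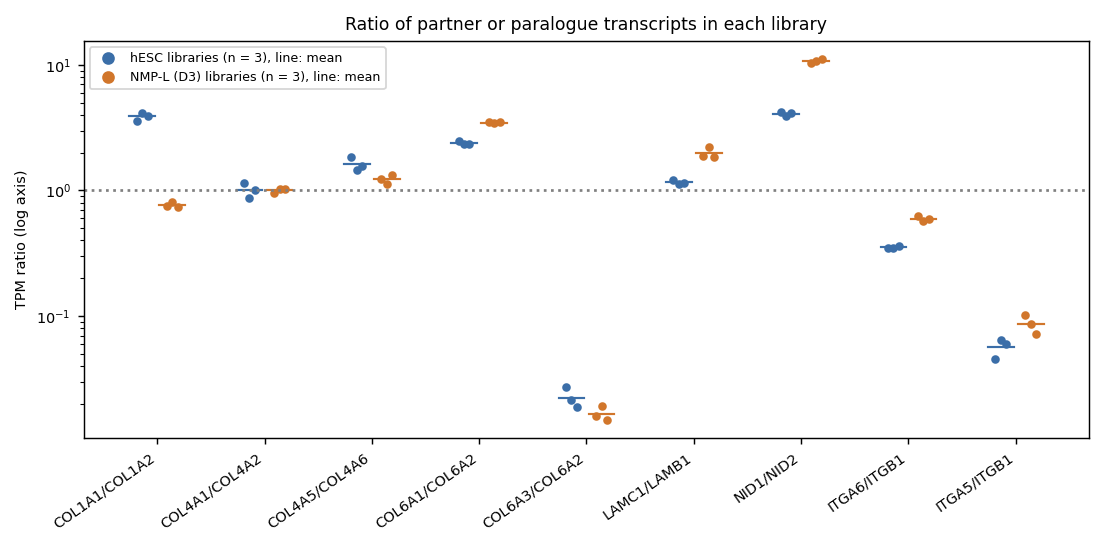
Ratio of the TPM of 2 genes (y axis, log axis) in each library, for 9 pairs (x axis); points are libraries, blue for hESC and orange for NMP-L (D3), and short lines are means. COL1A1/COL1A2 drops from 3.88 to 0.766 and NID1/NID2 climbs from 4.08 to 10.7 on average, while COL4A1/COL4A2 lies at 1.01 and 1.00.

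The 9 ratios were chosen after the values were seen. Their libraries did not overlap in 7 pairs, each with a two-sided exact permutation p of 0.1 and an adjusted p of 0.13 over the 9. Summed over all 44 collagens, the level fell from 1386 ± 64.6 to 829 ± 37.7 TPM (SD, n = 3 each), and without COL1A1 from 1047 ± 41.7 to 799 ± 37.5 TPM. The 12 laminins together rose from 281 ± 9.09 to 407 ± 8.87 TPM, of which LAMC1 alone went from 81.1 ± 6.10 to 202 ± 4.06 TPM. Of the 11 laminins tested, 3 were higher and 5 lower. The 26 integrins stood at 565 ± 64.9 and 547 ± 38.6 TPM, with overlapping libraries (exact permutation test p = 0.7). Collagens and laminins did not overlap between conditions, and over the 20 such sums compared the smallest adjusted p was 0.15.

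The genes that make, bind and cut these proteins were counted in 4 lists. Of 25 genes for collagen modification and crosslinking, 24 were tested, 14 were lower and 5 higher. LOX, the lysyl oxidase that crosslinks fibrils, fell from 3.83 ± 0.760 to 0.839 ± 0.122 CPM (log2 fold change -2.19), and ADAMTS14, a procollagen N-proteinase, fell by 1.69 on the log2 scale. COLGALT2 (1.26), a collagen galactosyltransferase, and LOXL1 (0.96), an elastin crosslinker, had the largest rises. Of 19 adaptors that tie integrins to actin, 17 were tested, 9 were lower and 5 higher. In the complex of ILK with PINCH and parvin proteins, paralogues moved in opposite directions: LIMS1 (0.86) and PARVA (1.21) rose, LIMS2 (-2.04) fell, and the largest fall after it was in ZYX (-0.77), which encodes zyxin of focal adhesions. LIMS1 had fractional counts, so that its reads are partly an estimate.

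Of 19 matrix metalloproteinases and their inhibitors, 14 were tested, 3 were higher and 6 lower, and the 6 became 3 or 4 whenever a library was left out. MMP2, a gelatinase that cuts type IV collagen, rose from 12.9 ± 1.35 to 82.9 ± 4.80 CPM (log2 fold change 2.69, standard error 0.11, adjusted p = 4.8e-09). The other gelatinase, MMP9, fell from 4.91 ± 0.441 to 0.856 ± 0.210 CPM (log2 fold change -2.50). MMP11, stromelysin 3, rose by 1.72 on the log2 scale and the membrane-bound MMP24 fell by 0.95. Of 12 other basement membrane components and laminin receptors, all were tested, 9 were lower and 1 higher. The riser was EFEMP1, which encodes fibulin 3 and went from 16.4 ± 1.19 to 158 ± 13.03 CPM (log2 fold change 3.26, standard error 0.10), and NTN4, a netrin that binds the laminin gamma chain, had the largest fall (-3.30). The percent called in the 4 lists was 79.2%, 82.4%, 64.3% and 83.3%, against 55.8% of all genes tested.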

How the data were processed

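RNA-seq libraries of polyadenylated RNA (single-end reads of 76 bp) from hESCs and NMP-L (D3) cells, 3 each, were analysed. Expected counts from RSEM were deposited without normalization between libraries, and TPM values from the same program were deposited beside them. The submitters' processing notes name cutadapt 1.9.1, STAR 2.5.2a, RSEM 1.3.0, DESeq2 1.12.3 and hg19; the annotation and the use of strand are not given in the sources used here. The deposited expected counts divide reads shared between genes by estimate, and 8.44% of genes had a fractional count. All per-sample columns were used, and no row lacked a gene name.

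Rounded counts were tested with edgeR 4.0.16 under R 4.3.3 (filterByExpr, minimum count 10; 15517 of 27672 genes passed; TMM; glmQLFit and glmQLFTest; adjusted p under 0.05). The standard error is the log2 fold change divided by the square root of F. DESeq2 1.42.0 and limma 3.58.1, the latter on log2(TPM + 0.5), served as alternatives, with RLE, upper-quartile and library-size scaling, other filters, the replicate number as a block, and each library left out. Shares, ratios and sums of TPM were compared by two-sided exact permutation tests. The number of libraries limits the precision, and the floor covers counting error only. Fitted fold changes of genes at the floor in 1 condition depend on the prior count. The procedure was tested on simulated data.

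Values in every library were given for FN1, NID1, NID2, LAMA1, LAMA5, LAMB1, LAMC1, COL4A1, COL4A2, ITGB1, ITGA5, ITGA6 and ITGAV and for genes past the threshold at 2-fold or more whose higher condition averaged 1 CPM or more, and other genes past the threshold by their fold change. Outside this rule, COL4A5 was given by library as the partner of COL4A6, as were the counts of COL3A1, COL4A3 and COL6A5 and the means of further genes, all chosen after their values were seen. From each list of other genes the 2 largest rises and 2 largest falls with at least 1 CPM were named, or fewer where fewer existed. Some genes that these rules would name are not reported here, though they count in the totals. Genes and lists were chosen with earlier results of these data known, and the ratios after the values were seen. Gene positions and exon overlaps come from GENCODE release 44 mapped to GRCh37, which is hg19, and start windows from RefSeq on GRCh38.p14. Python 3.11.15 and matplotlib 3.10.9 were used for tables and plots.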

Additional observations from a re-analysis of the deposited data

How the results depend on the processing

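The counts of genes that differed were stable in size. Among all genes the number was 8653, and it lay between 7255 and 8891 with a library left out. Of the 50 matrix and integrin genes called, between 44 and 50 were called again in each of the 14 alternatives, and 0 changed direction. The 16 rises became 15 or 16 and the 34 falls 30 to 34 with a library left out; limma on log2(TPM + 0.5) gave 18 rises and 28 falls. The calls lost in at least 1 alternative were those of COL4A4, COL13A1, LAMA1, FN1, ITGAV, ITGB1 (limma, adjusted p = 0.067), ITGA4, COL8A1 and ITGA8, the last 2 only where 10 counts were required in every library, which leaves them out. Calls were gained in at least 1 alternative for ITGA5, ITGAE, ITGA3, COL6A6, COL24A1 and COL28A1. COL4A3, COL6A5 and COL15A1 were called only where no filter beyond 1 count in total was used. The 6 falls among matrix metalloproteinases and inhibitors became 3 to 4 with a library left out, 3 without hESC replicate 3 and without NMP-L replicate 3. In shares of CPM, which ignore length, the gain of LAMC1 among gamma chains was 5.65 points, against 7.62 points in TPM, where it lay between 7.13 and 8.10 points with a library left out.

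Replicate number was entered as a block although no source pairs the libraries. Deviations from the condition means correlated at -0.46, -0.04 and -0.17 across genes for same-numbered libraries, and at -0.27 to 0.38 for the others. With 3 libraries per condition, these values cannot settle whether the numbers pair libraries. With the block 46 of the 50 calls were kept (COL13A1, COL4A4, FN1 and LAMA1 were lost), with 16 rises and 30 falls, and 7560 genes differed in all. At these depths, genes with few counts, such as COL3A1, ITGB3 and ITGB7, could not be compared.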
